A study of Homo sapiens with 4 samples.

Results

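The miRNA cluster made up of miR-183, miR-182 and, between them, miR-96 was followed by small RNA sequencing in H661 cells, a cultured line that derives from a human large cell carcinoma of the lung. The cells were exposed for 8 h to entinostat at 2.5 µM or to its solvent, dimethyl sulfoxide (DMSO), with 2 libraries per treatment. Entinostat belongs to the benzamides and blocks the class I enzymes that remove acetyl groups from histones. Both groups were grown in the same serum-containing RPMI1640 medium and carried no other named agent or genetic change, and no label says whether the libraries of a group came from separate cultures, so the spread behind the p-values is that of these libraries and may be technical. Members were all mature microRNAs (miRNAs) whose name without its arm is miR-183, miR-96 or miR-182, which gave 5 of the 826 miRNAs listed, hsa-miR-183-5p, hsa-miR-183-3p, hsa-miR-96-5p, hsa-miR-182-5p and hsa-miR-182-3p (the species prefix is left out below). Enough counts for testing were reached by 4 of the 5, among 401 miRNAs tested in all. The other arm of miR-96, miR-96-3p, is not among the 826 listed and was not analysed here.

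A miRNA cluster is a group of hairpins cut from 1 primary transcript, and each hairpin can release a mature miRNA from its 5p arm and from its 3p arm. The arm that is retained in Argonaute, the guide, pairs with target messenger RNAs mainly through its seed, bases 2 to 8. The 3 hairpins of this cluster are known from sensory organs, where they are abundant in photoreceptors and inner ear hair cells. They are also often found raised in carcinomas, where the FOXO1 messenger RNA is a described target of all 3 guides, and the repressor ZEB1 is known to silence both this cluster and the epithelial miR-200 family.

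The guides are shown first because their near-identical 5′ ends set how they can be told apart as regulators. As reads they are told apart over their whole length. Sequences are from RefSeq (GRCh38.p14), written 5′ to 3′, with the seed in capitals, and miR-1271-5p is added because it shares a seed with miR-96-5p.
miR-183-5p: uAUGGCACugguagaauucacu
miR-96-5p: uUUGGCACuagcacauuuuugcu
miR-182-5p: uUUGGCAAugguagaacucacacu
miR-1271-5p: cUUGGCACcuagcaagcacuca
Counted from the 5′ end, the seeds of miR-183-5p and miR-96-5p differ by A2U, and those of miR-96-5p and miR-182-5p by C8A. The seed of miR-182-5p differs from that of miR-183-5p by both A2U and C8A. Outside the seed the relation is another one. Over 22 bases aligned without gaps, miR-183-5p and miR-182-5p are identical at 18, the differences being A2U, C8A, U17C and U22A. Aligned in the same way, miR-183-5p and miR-96-5p are identical at 13. Over 23 bases miR-96-5p and miR-182-5p are identical at 12. Among the 729 listed miRNAs with a RefSeq mature sequence, miR-182-5p and miR-183-5p were each other's closest match, at 4 mismatches, and the closest match of miR-96-5p, miR-27b-3p, had 8 mismatches over 21 bases. How the authors assigned reads that fit more than 1 miRNA is not given in the sources used here.

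The minor arms are shown for comparison, since none of them carries a seed of the guides.
miR-183-3p: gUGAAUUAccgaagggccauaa
miR-182-3p: uGGUUCUAgacuugccaacua
Each mature sequence lies in a hairpin on the minus strand of chromosome 7, and 2 of these hairpins are printed with both mature arms in capitals to show how the arms face each other across the loop.
MIR96: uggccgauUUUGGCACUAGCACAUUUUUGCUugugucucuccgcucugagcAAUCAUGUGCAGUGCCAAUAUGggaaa
MIR182: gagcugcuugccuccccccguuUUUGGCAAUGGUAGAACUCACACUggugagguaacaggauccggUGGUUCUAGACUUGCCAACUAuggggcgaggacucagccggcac
The arms are 20 bases apart in MIR96 and in MIR182, and 17 bases apart in MIR183. In GENCODE release 29 (GRCh38), MIR183 is at chr7:129774905-129775014, MIR96 at chr7:129774692-129774769 and MIR182 at chr7:129770383-129770492. Transcription from the minus strand therefore meets MIR183 first, MIR96 after a gap of 135 bases and MIR182 after a further 4199 bases. None of the 3 hairpins overlaps another annotated gene. The nearest protein-coding genes are NRF1, 13300 bases away at lower coordinates on the plus strand, and UBE2H, 55717 bases away at higher coordinates on the minus strand.

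**Figure D1:**
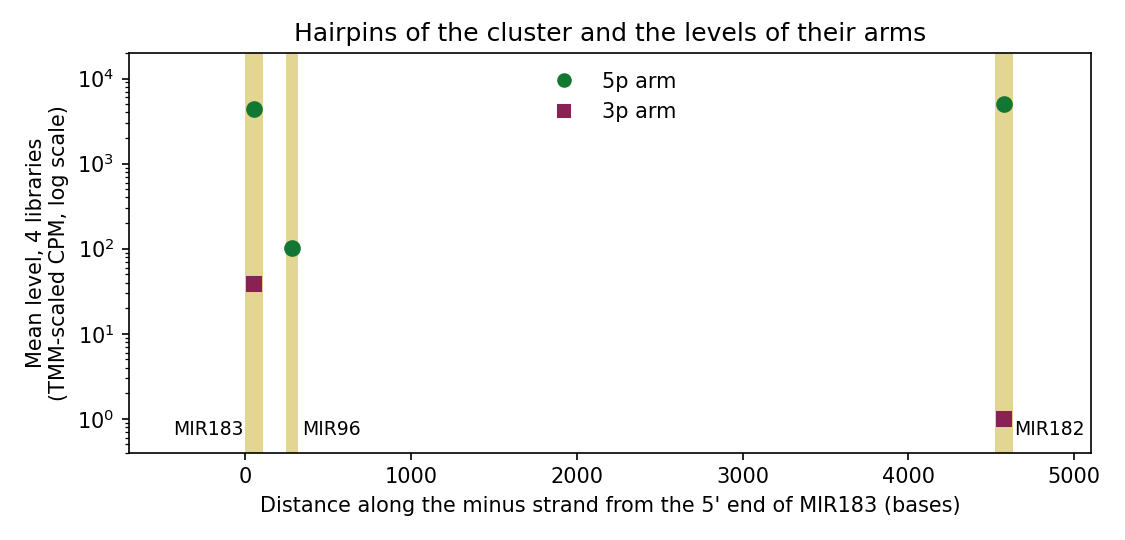
Position of the 3 hairpins (shaded) along the minus strand, in bases from the 5′ end of MIR183, against the mean level of each listed arm over 4 libraries (TMM-scaled CPM, log scale). MIR183 and MIR96 sit 135 bases apart and MIR182 lies 4199 bases beyond MIR96, while the 5p arms of the outer hairpins stand well above that of MIR96; the 3p arm of miR-182 rests on 1 library.

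The libraries held 547875 to 938559 miRNA counts. Levels are in CPM, the reads of a miRNA per 1000000 miRNA reads, adjusted by TMM (trimmed mean of M-values) factors, which stayed between 0.993 and 1.01. A mature miRNA is read whole, so its count does not depend on length, but adapter ligation recovers different sequences unequally, and levels of different miRNAs are compared here as read counts only. Counts of 1 did not occur in any library, where the lowest value above 0 was 2, so a miRNA listed at 0 may have had a single read. The summed levels that follow are unscaled CPM. Among miRNAs that mark other cell types, those of blood (1 of 5 names listed) summed to 0 to 5.48 CPM, that of liver to 0 to 5.33 CPM and those of muscle (2 of 4) to 5.34 to 12.8 CPM. Neuronal miRNAs (2 of 2 names) summed to 1112 to 1213 CPM with DMSO and 1303 to 1347 CPM with entinostat, nearly all of it miR-9-5p. The other name, miR-124, was listed by its 5p arm only, with 2 counts in entinostat replicate 2 and 0 elsewhere. Mesenchymal miRNAs (3 of 4 names) summed to 70.3 to 90.8 and 112 to 115 CPM. The neuroendocrine pair miR-375 and miR-7 summed to 10094 to 11160 and 8624 to 11369 CPM, and miR-375 had only 8 to 18 counts per library. The neuroendocrine sums overlapped between the treatments, and the neuronal and mesenchymal sums did not. Both entinostat libraries were above both DMSO libraries for 2 of 2 tested neuronal, 1 of 2 mesenchymal and 0 of 2 neuroendocrine miRNAs, against 20.7% of all tested miRNAs. In these 3 lists 0 tested miRNAs had an adjusted p under 0.05 in the edgeR quasi-likelihood test, as over all 401 tested. The part of these differences in the results below was not tested.

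The cluster held close to 1 in 100 miRNA reads of H661 cells, and nearly all of them came from the 5p arms of its outer hairpins. Its summed share of all counts was 0.930% (exact Clopper-Pearson 95% interval 0.911 to 0.950%) and 0.975% (0.950 to 1.00%) in the DMSO libraries, and 0.946% (0.921 to 0.972%) and 0.964% (0.942 to 0.987%) in the entinostat libraries. These intervals, like all counting intervals here, cover counting error only, since no molecular identifier is named. The entinostat libraries lay between the DMSO libraries, with means of 0.953 ± 0.0318% and 0.955 ± 0.0129% (SD, n = 2; two-sided exact permutation test, p = 1, where 2 libraries against 2 cannot go below 0.333). Without DMSO replicate 1 the difference of 0.00238 percentage points became -0.0201, and without entinostat replicate 2 it became -0.00674. Within the cluster, miR-182-5p took 50.8 to 53.2% of the counts in a library and miR-183-5p took 45.2 to 47.6%. The share of miR-96-5p was 0.945 to 1.23%, and the 3p arms together held 0.310 to 0.551%.

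The guide of the first hairpin is miR-183-5p. The DMSO libraries held 4153 and 2543 counts of it, the entinostat libraries 2399 and 3286. Its level was 4445 and 4530 CPM with DMSO and 4416 and 4332 CPM with entinostat. Both entinostat libraries were below both DMSO libraries, but by little, the highest being 1.05 times the lowest. This miRNA ranked 41st of all by its mean share, or from 41 to 43 in single libraries. The coefficient of variation over the 4 libraries was 1.84%, where counting alone would give about 1.80% at its mean count. Of the 97 tested miRNAs with a mean of 1000 CPM or more, 3 varied less, and their median coefficient was 6.45%. Entinostat over DMSO, the fold was 0.975 with a 95% interval of 0.860 to 1.10 (log2 fold change -0.04 ± 0.08, SE; edgeR quasi-likelihood test, Benjamini-Hochberg adjusted p = 0.924). The sign rested on the scaling: upper quartile factors gave 0.07 for this miRNA and shifted the median over all tested miRNAs from 0.00466 to 0.12.

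The guide of the last hairpin, miR-182-5p, was the most abundant member. Counts of it were 4431 and 2857 in the DMSO libraries, 2717 and 3862 in the others. In CPM it stood at 4742 and 5089 with DMSO and at 5001 and 5091 with entinostat. The lowest value belonged to DMSO replicate 1, the other 3 libraries lay close together, and the groups overlapped. Its coefficient of variation over the libraries was 3.30%, above the 1.70% that counting alone would give, and 13 of the 97 abundant miRNAs varied less. The fold was 1.03 (95% interval 0.902 to 1.17), with a log2 fold change of 0.04 ± 0.08 (SE) and an adjusted p of 0.924 in the edgeR test. Without DMSO replicate 1 the log2 fold change was -0.02. The intervals of both abundant guides thus lay within 0.860 and 1.17 times their DMSO level. No reference RNA was added, so each level is a share of the miRNA reads and not an amount per cell.

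The guide of the middle hairpin, miR-96-5p, was far less abundant than its neighbours. The DMSO libraries held 107 and 59 counts of it, the entinostat libraries 49 and 74. The corresponding levels were 115 and 105 CPM with DMSO and 90.2 and 97.5 CPM with entinostat. Both entinostat libraries were below both DMSO libraries, and the counting intervals of all 4 overlapped (the highest ran from 93.9 to 138 CPM in DMSO replicate 1 and the lowest from 66.7 to 119 CPM in entinostat replicate 1). Means were 110 ± 6.66 and 93.9 ± 5.20 CPM (SD, n = 2), a fold of 0.853 with an interval of 0.638 to 1.14 (log2 fold change -0.23 ± 0.18, SE; adjusted p = 0.693, edgeR). The log2 value ran from -0.31 to -0.11 over 17 other settings, with adjusted p of 0.643 or more. A change was thus not detectable at this depth, and the interval reaches down to 0.638 times the DMSO level.

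The minor arm miR-183-3p had 40 and 17 counts in the DMSO libraries, 18 and 37 in the entinostat libraries. Its levels were 42.8 and 30.3 CPM with DMSO and 33.1 and 48.8 CPM with entinostat, so the groups overlapped and the deeper library was the higher one in each. The log2 fold change was 0.15 (95% interval -0.60 to 0.91, edgeR adjusted p = 0.924), and it turned to -0.06 without DMSO replicate 2 and to -0.19 without entinostat replicate 2. The other minor arm, miR-182-3p, was listed at 0 in both DMSO libraries and in entinostat replicate 1 and had 3 counts in entinostat replicate 2, too few for testing.

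**Figure D2:**
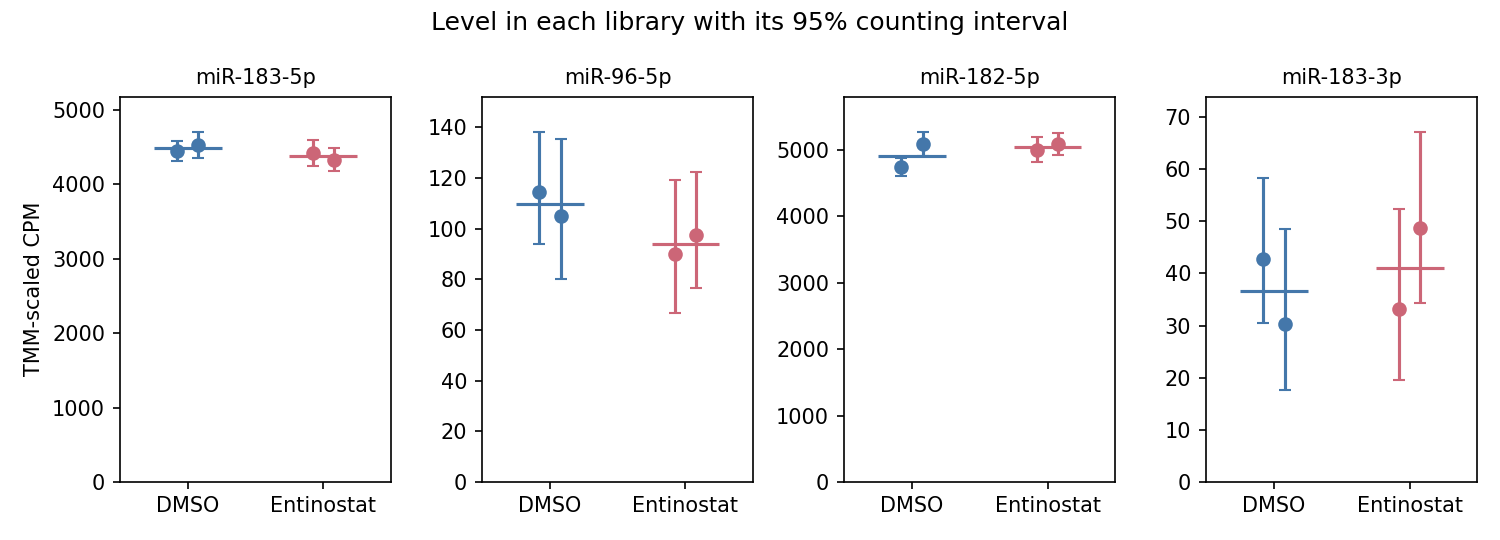
Level of 4 members in each library (TMM-scaled CPM, linear axes from 0), with points for libraries, bars for exact 95% counting intervals and lines for group means. The abundant guides stay between 4332 and 5091 CPM in every library, miR-96-5p lies at 90.2 to 115 CPM, and the intervals of miR-183-3p are wide.

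None of the members was called between the treatments. At an adjusted p under 0.05, 0 of the 4 tested members were higher and 0 lower, and over all 401 tested miRNAs the edgeR test called 0% higher and 0% lower, with 27 at an unadjusted p under 0.05, of which 0 were members. DESeq2, run on all 826 miRNAs, and limma-voom, run on the 401, called 0 miRNAs too, with 11 and 31 at an unadjusted p under 0.05. The edgeR likelihood ratio test called 4 miRNAs and the fit without entinostat replicate 1 called 5, none of them in the cluster. Of the 4 tested members 2 had a log2 fold change above 0, where 51.9% of all tested miRNAs did. The entinostat libraries were all below the DMSO libraries for 2 members, miR-183-5p and miR-96-5p, against 20% of all tested miRNAs, and all above for 0 members, against 20.7%. The median log2 fold change of the members was 0.000766, and that of all tested miRNAs 0.00466. The absolute log2 fold change had a median of 0.0956 in the cluster, 0.150 over all tested miRNAs and 0.0795 over the 97 abundant ones.

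**Figure D3:**
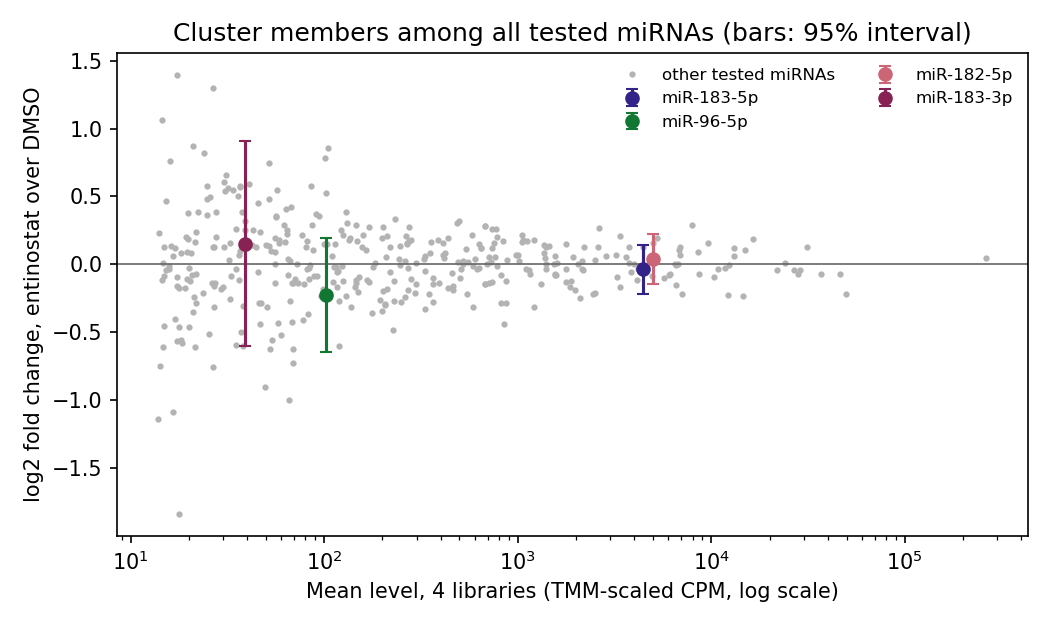
log2 fold change (entinostat over DMSO) against mean level (TMM-scaled CPM, log scale) for the 401 tested miRNAs, with 95% intervals for 4 cluster members in colour. The intervals of the members all include 0, and they widen from the abundant guides at -0.04 and 0.04 to miR-183-3p at 0.15.

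Ratios between members of a library need no scaling between libraries, so they show whether the products of the 3 hairpins kept their proportions. The ratio of miR-182-5p to miR-183-5p counts was 1.07 (95% counting interval 1.02 to 1.11) and 1.12 (1.06 to 1.19) with DMSO. With entinostat it was 1.13 (1.07 to 1.20) and 1.18 (1.12 to 1.23). The more distal hairpin thus gave slightly more reads in each library, and the entinostat ratios were above the DMSO ratios by 0.08 on the log2 scale, a fold of 1.05. The SD of the log2 ratio was 0.05 with DMSO and 0.04 with entinostat (n = 2), and the nearest libraries across treatments, DMSO replicate 2 and entinostat replicate 1, had overlapping counting intervals. Leaving out 1 library moved the difference between 0.04, without DMSO replicate 1, and 0.11, without DMSO replicate 2.

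The ratio of miR-96-5p to miR-183-5p was 0.0258 and 0.0232 with DMSO and 0.0204 and 0.0225 with entinostat. Against miR-182-5p it was 0.0241 and 0.0207 with DMSO and 0.0180 and 0.0192 with entinostat. Both ratios were lower in both entinostat libraries, with differences of -0.19 and -0.26 on the log2 scale and counting intervals that overlapped across treatments. Without DMSO replicate 1 these differences were -0.11 and -0.15, and without DMSO replicate 2 they were -0.26 and -0.37. The adjacent hairpins MIR183 and MIR96, 135 bases apart, were therefore further apart in read level than MIR183 and MIR182, although MIR182 lies 4199 bases beyond MIR96.

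The 5p arm of miR-183 outnumbered its 3p arm by 104 (95% counting interval 76.1 to 146) and 150 (93.2 to 257) to 1 with DMSO and by 133 (84.1 to 225) and 88.8 (64.3 to 126) to 1 with entinostat. The log2 ratio differed by -0.20 between the treatments, within overlapping groups, and by 0.06 without DMSO replicate 2 and 0.09 without entinostat replicate 2. For miR-182, the ratio of the arms in the only library with a listed 3p arm, entinostat replicate 2, was 1287 to 1 with a counting interval of 440 to 6245. In that library the reads of miR-182 were thus more one-sided than those of miR-183, as the intervals did not overlap.

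Of the 4 ratios tested, 3 did not overlap between the treatments, and the 3 are built from the same 3 guides. Over all pairs of tested miRNAs 37.2% did not overlap, and 40.5% of the pairs among the 97 abundant miRNAs. The two-sided exact permutation test gave p = 0.333 for these 3, the smallest it allows, and p = 0.667 for the arms of miR-183 (0.444 and 0.667 adjusted over the 4).

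**Figure D4:**
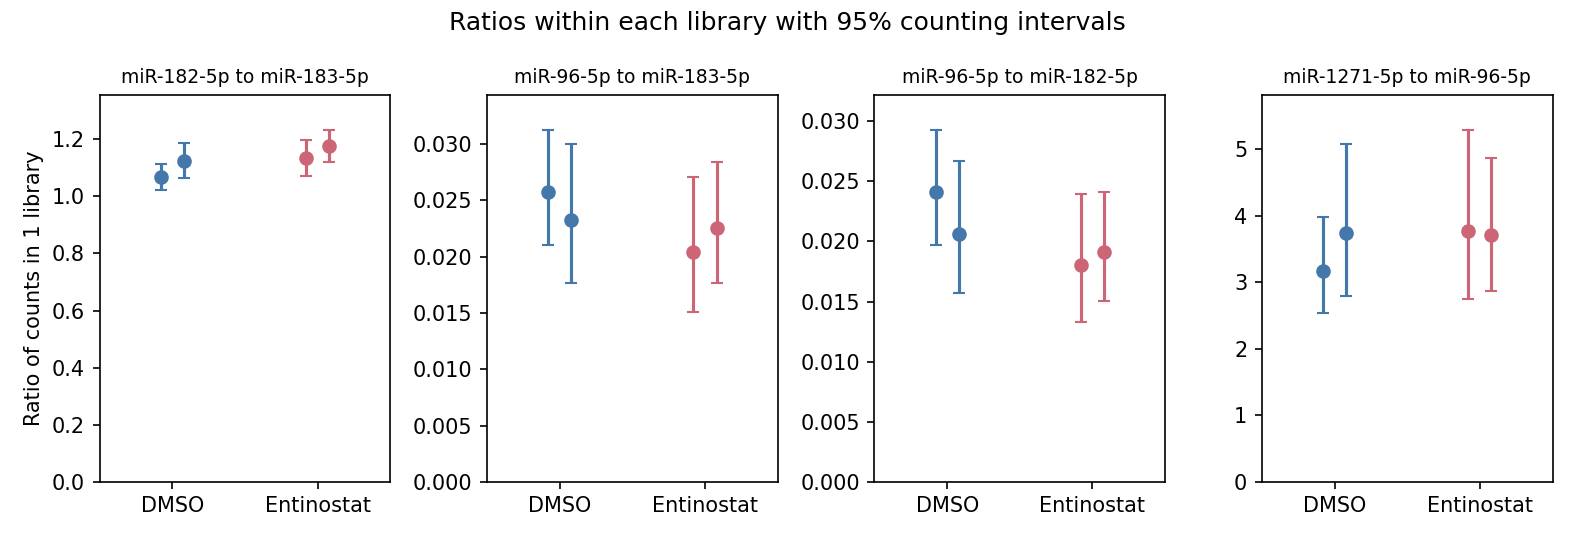
Ratio of counts between 2 miRNAs within each library, with exact 95% counting intervals (linear axes from 0). The ratio of miR-182-5p to miR-183-5p runs from 1.07 to 1.18, both ratios of miR-96-5p stay at or below 0.0258, and miR-1271-5p exceeds miR-96-5p by 3.17 to 3.78 times in every library.

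By read counts, a miRNA from another chromosome with the seed of miR-96-5p exceeded miR-96-5p itself. Among the listed miRNAs with a RefSeq sequence, the only one sharing bases 2 to 8 with a member was miR-1271-5p (chr5:176367960-176367981, plus strand), printed above. Its counts were 339 and 221 in the DMSO libraries, 185 and 275 in the entinostat libraries. They were 3.17 (95% counting interval 2.54 to 3.98) and 3.75 (2.80 to 5.08) times those of miR-96-5p with DMSO and 3.78 (2.74 to 5.28) and 3.72 (2.87 to 4.87) times with entinostat. This made 76.0 to 79.1% of the summed reads of miR-1271-5p and miR-96-5p, which share the seed UUGGCAC. The log2 fold change of miR-1271-5p was -0.10 (95% interval -0.38 to 0.18, edgeR adjusted p = 0.832). Bases 2 to 7 (UUGGCA) are shared by miR-96-5p, miR-1271-5p and miR-182-5p, and among these miR-182-5p was the most abundant by far, at 2717 to 4431 counts. Compared position by position without gaps, miR-1271-5p is identical to miR-96-5p at 9 of 22 bases. This count misses the stretch uagca, which follows the seed directly in miR-96-5p and after an extra base in miR-1271-5p.

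In the order of levels the cluster's guides fell among unrelated miRNAs. Directly above miR-182-5p was miR-221-3p (4519 to 5373 CPM) and directly below it miR-409-3p (4614 to 5361 CPM), whose ranges both enclosed the 4742 to 5091 CPM of miR-182-5p. Next to miR-183-5p (4332 to 4530 CPM) lay miR-409-3p above, with no overlap, and miR-181a-5p below (4138 to 4893 CPM), which overlapped. The neighbours of miR-96-5p were miR-106b-5p (71.3 to 127 CPM) and miR-148a-5p (71.7 to 129 CPM), both overlapping its 90.2 to 115 CPM.

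The profile over the 4 libraries was compared with that of the other 96 abundant miRNAs by the root mean square distance of centred log2 levels. Closest to miR-182-5p were miR-151a-3p (0.0229 log2 units), miR-125b-2-3p (0.0231) and let-7c-5p (0.0324). Closest to miR-183-5p were miR-26a-5p (0.0178), miR-186-5p (0.0189) and miR-378a-3p (0.0270). At a distance of 0.0498, miR-183-5p came in place 11 for miR-182-5p, and miR-182-5p in place 19 for miR-183-5p. The 2 abundant guides of the cluster were thus not each other's nearest profile, though all these distances are small and rest on 4 libraries. Counting alone would give a coefficient of variation of about 1.80% for miR-183-5p and 1.70% for miR-182-5p. Its part in these distances and places was not tested, so they do not show that the 2 guides vary separately.

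The epithelial miRNAs named above and those encoded near the cluster were followed as lists. Of the epithelial names (miR-200a, miR-200b, miR-200c, miR-141, miR-429, miR-205 and miR-203a) 4 of 7 were listed, and their summed level was 41.0 to 56.5 CPM with DMSO and 59.8 to 76.7 CPM with entinostat, against 9303 to 9753 and 9460 to 9643 CPM for the cluster, all unscaled. The cluster was thus far more abundant than the epithelial miRNAs in each library. Of these, miR-200c-3p had 31 and 14 counts in the DMSO libraries, 23 and 35 in the entinostat libraries (log2 fold change 0.57, 95% interval -0.13 to 1.28, edgeR adjusted p = 0.595), and miR-200b-3p had 3 counts in DMSO replicate 1 and was listed at 0 elsewhere. The other tested member, miR-203a-3p, lay in the opposite direction, with 19 and 7 counts in the DMSO libraries, 10 and 6 in the entinostat libraries and a log2 fold change of -0.46 (95% interval -1.78 to 0.87, edgeR adjusted p = 0.832). Neither passed the threshold. The summed level also holds miR-205-5p, which had too few counts for testing, 0 and 2 in the DMSO libraries and 9 and 4 in the entinostat libraries.

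Of 6 miRNA names with a hairpin elsewhere in the 7q32 region or just beyond it, 4 were listed and 3 rows were tested, with 0 called and a median log2 fold change of 0.06. Not all of these reads need come from chromosome 7, since miR-129-5p and miR-29b-3p are also made from hairpins on chromosomes 11 and 1. The level of miR-29a-3p was 699 and 757 CPM with DMSO and 823 and 844 CPM with entinostat (log2 fold change 0.20, 95% interval -0.04 to 0.44, edgeR adjusted p = 0.595). For miR-335-3p, from an intron of MEST, the log2 fold change was 0.06, and for miR-129-5p it was 0.03. The 3p arm specific to the chromosome 7 copy, miR-129-1-3p, was listed at 0 in all libraries but entinostat replicate 2, where it had 2 counts, whereas that of the chromosome 11 copy, miR-129-2-3p, had 27 and 7 counts with DMSO against 15 and 26. Only miR-29a-3p of the 3 had both entinostat libraries above both DMSO libraries, as 20.7% of all tested miRNAs did.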

How the data were processed

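Whole-number counts per mature miRNA name were deposited for 4 libraries, and the deposited CPM equal the count over the column total within 0.0001, with no composition factor. The submitters' processing notes name bcl2fastq 2.18. An aligner, counter, miRNA annotation or build is not given in the sources used here. Per the labels' protocols, an NEB small RNA kit was used on total RNA.

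Counts were scaled by TMM and tested over all rows with edgeR 4.0.16 (quasi-likelihood, treatment only, R 4.3.3), after filterByExpr (minimum count 10, total 15), with Benjamini-Hochberg adjustment and a threshold of 0.05. Intervals use the fitted standard error. Ratios are log2 of counts plus 0.5, and ratio and share differences have exact permutation tests (SciPy 1.17.1). Alternatives covered scaling, filter, tool (DESeq2 1.42.0, limma 3.58.1), replicate block, left-out libraries and log2 of the deposited CPM plus 1 or 0.5. No pairing was used in the main test, because the labels name no shared batch for a replicate number. Same-numbered libraries also did not deviate together (correlation -0.106 over 401 miRNAs).

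All members are named, with the 3 nearest profiles, the neighbours in level, miRNAs sharing a seed, and guide arms of fixed lists. The members and lists were chosen with earlier results of these data known. Lists were recalled without a database.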

Additional observations from a re-analysis of the deposited data

How the results depend on the processing

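The count of called miRNAs was 0 in the edgeR quasi-likelihood test and under 15 of the 17 alternatives. It was 4 with the edgeR likelihood ratio test and ranged from 0 to 5 when 1 library was left out, the 5 being without entinostat replicate 1. With the replicate block it was 0 (25 at an unadjusted p under 0.05), and the block changed no call, with log2 fold changes of -0.04 for miR-183-5p, 0.15 for miR-183-3p, -0.23 for miR-96-5p and 0.04 for miR-182-5p. Pairing the libraries crosswise, chosen after seeing the data because the deviations of same-numbered libraries had a weak negative correlation of -0.106, also gave 0 called and 32 at an unadjusted p under 0.05. With upper quartile factors miR-183-5p turned to 0.0747. Leaving out 1 library gave -0.19 to 0.45 for miR-183-3p, -0.0246 to 0.0616 for miR-182-5p, -0.06 to -0.03 for miR-183-5p and -0.31 to -0.17 for miR-96-5p. It gave -0.478 to 0.0873 for the log2 ratio of the miR-183 arms and -0.0201 to 0.0249 percentage points for the share of the cluster, and the cause of these reversals was not tested. The 3 ratios between guides kept their direction under all 6 alternatives. Since they did not overlap between the treatments, leaving out 1 library could not reverse them. The block leaves the difference as it is, so the kept direction adds nothing to the lack of overlap. Depth limits miR-96-5p and the 3p arms, at 289 counts and fewer over the 4 libraries.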
